A study of Rattus norvegicus with 6 samples.

Results

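The natriuretic peptide genes and the fetal cardiac gene programme were examined here as 7 genes, chosen by symbol from the 22250 genes of the deposited table: Nppa, Nppb, Nppc, Myh6, Myh7, Acta1 and Actc1. Their counts were compared between left ventricular myocardium of 3 young donor hearts (hearts 3, 13 and 15) and 3 aged donor hearts (hearts 3, 4 and 7), taken on postoperative day 1 after heterotopic transplantation. Young donors were Sprague-Dawley rats of 10 weeks and aged donors Sprague-Dawley rats of 1 year, all of WT genotype and male. Every heart was stored cold in University of Wisconsin solution and then transplanted into a young syngeneic rat without immunosuppressants, and heart numbers count within each donor group. The graft has no inflow to its left atrium, so its left ventricle is unloaded, and a heart that was not transplanted is not among the 6 libraries.

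Natriuretic peptides are hormones that lower blood pressure and volume through receptors that make cyclic GMP. The atria secrete atrial natriuretic peptide (Nppa) throughout life, whereas the ventricle makes it before birth and again under stretch or injury. In the rat ventricle, alpha-myosin heavy chain (Myh6), a fast motor, replaces the slower beta chain (Myh7) around birth, and cardiac alpha-actin (Actc1) becomes dominant over skeletal alpha-actin (Acta1). Return of Nppa, Nppb, Myh7 and Acta1 in a diseased adult ventricle is known as reactivation of the fetal programme.

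Of the 7 genes, 6 passed the filter on low counts and entered the comparison, which covered 13784 genes. Myh6, Acta1 and Actc1 were past the limits taken from the study's methods and lower in aged donor hearts. A gene was past the limits where its fold change exceeded 1.5 or was under 0.67 and its p-value, before adjustment, was under 0.05. Nppa, Nppb and Myh7 were not past them. Among all genes tested, 19% were past the limits and lower, 13.2% past them and higher, and 32.2% past them in either direction. The Benjamini-Hochberg adjusted p-value from edgeR was under 0.05 for 0 genes, which is 0% of those tested, against 4731 genes with an unadjusted p-value under 0.05. DESeq2 gave 3592 and limma-voom with quality weights 8416 genes with an adjusted p-value under 0.05. Two-sided exact permutation tests on 6 hearts split 3 and 3 cannot go below p = 0.1.

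The libraries held 21457509 to 24560869 reads on genes. The 7 genes together took 4.03% and 4.42% of these reads in young hearts 3 and 13, 0.775% in young heart 15, 0.529% and 0.36% in aged hearts 4 and 7, and 0.00732% in aged heart 3. The 11 cardiomyocyte markers in the table differed in a similar way. Their summed level, in CPM (reads of a gene scaled to a common library size by TMM), was 46910 and 50230 in young hearts 3 and 13, 10830 in young heart 15, 7017 and 7460 in aged hearts 4 and 7, and 161.4 in aged heart 3. Myl2, the light chain that defines ventricular muscle, was at 0.887 CPM in aged heart 3 and between 27.3 and 387.9 CPM in the other hearts. Young heart 15 and aged heart 3 thus stood apart from the other hearts of their groups, and results that change without both are given with and without them. Leaving out both was decided on after seeing the data. Each group then keeps 2 hearts and the exact permutation test cannot go below p = 0.333. Mitochondrial genes took 21.7%, 21.7% and 11.9% of the reads in young hearts 3, 13 and 15 and 6.56%, 7.99% and 10.3% in aged hearts 3, 4 and 7, without overlap, and their part in the results was not tested. In bulk tissue, fewer cardiomyocytes and less of an mRNA in each cardiomyocyte cannot be told apart. Neutrophil markers summed to between 16.9 and 152.1 CPM in young and between 392.5 and 1512 CPM in aged donor hearts. Their part in the results below was not tested.

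Nppa (ENSRNOG00000008176) and Nppb (ENSRNOG00000008141), which encodes B-type natriuretic peptide, a ventricular hormone measured in heart failure, are neighbours. On Rnor_6.0, the build named in the submitters' processing notes, Nppb lies on the plus strand of chromosome 5 from 164796185 to 164797531 and Nppa from 164808323 to 164809705, with 10791 bases between them. The ratio of Nppb to Nppa, given below, did not overlap between the donor groups (exact permutation test, two-sided, p = 0.1, and 0.3 after Benjamini-Hochberg adjustment over 3 ratios). The promoters of both genes are shown for that reason, and a part of their motifs in the ratio was not tested. They are RefSeq sequences on GRCr8, from 250 bases before an annotated start, chr5:163711934-163712233 for Nppa and chr5:163699758-163700057 for Nppb, both on the plus strand. The Nppa window counts from the start of the annotated gene, and the Nppb window from a start inside it, downstream of the gene's first base at 163699955. Capitals mark the GATA motifs TGATAA and AGATAA and the M-CAT motif CATTCC, searched on both strands.
Nppa: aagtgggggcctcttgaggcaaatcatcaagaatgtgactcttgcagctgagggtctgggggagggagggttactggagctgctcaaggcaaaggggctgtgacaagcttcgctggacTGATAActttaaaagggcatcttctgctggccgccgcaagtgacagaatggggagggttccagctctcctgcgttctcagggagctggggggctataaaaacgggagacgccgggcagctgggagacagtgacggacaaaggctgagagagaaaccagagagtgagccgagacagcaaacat
Nppb: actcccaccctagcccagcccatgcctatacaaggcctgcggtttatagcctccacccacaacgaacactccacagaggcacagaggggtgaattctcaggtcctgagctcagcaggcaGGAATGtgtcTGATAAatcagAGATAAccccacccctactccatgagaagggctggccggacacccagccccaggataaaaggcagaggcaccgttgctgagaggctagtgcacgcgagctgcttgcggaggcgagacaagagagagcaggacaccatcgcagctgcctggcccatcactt
Counted from 0 at each window's own start, the Nppa window held TGATAA at -132 to -127. The Nppb window held TGATAA at -121 to -116, AGATAA at -110 to -105 and CATTCC, on the minus strand, at -131 to -126, and the 3 matches did not overlap. TGATAA occurred in 9.03%, AGATAA in 11.6% and CATTCC in 14.2% of 33469 promoter windows of the same length.

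Nppa was read 350, 587 and 9449 times in young hearts 3, 13 and 15, and 139, 36052 and 9592 times in aged hearts 3, 4 and 7. In CPM, the young donor hearts had 21.2, 37.3 and 390.3 and the aged donor hearts 4.57, 1367 and 367.6. The groups overlapped at both ends, since the lowest and the highest level both belonged to aged donor hearts, and young heart 15 lay above aged heart 7. The means were 149.6 ± 208.6 CPM (SD, n = 3) in young and 579.6 ± 705.4 CPM (SD, n = 3) in aged donor hearts. The log2 fold change was 1.95 with a standard error of 1.79 (adjusted p = 0.446, edgeR with Benjamini-Hochberg adjustment), a difference smaller than the spread between hearts. The exact permutation test of log2 CPM (two-sided) gave p = 0.9. Without young heart 15 the log2 fold change was 4.34, and without aged heart 4 it was 0.32. Young heart 15 had the highest young level and aged heart 3 the lowest aged level, so leaving out both widens the difference by itself. With both left out, a setting decided on after seeing the data, the log2 fold change was 4.92 and past the limits (unadjusted p = 0.000248 from edgeR). In limma-voom with quality weights on all 6 hearts it was 3.25, also past the limits, with an adjusted p of 0.0626, whereas the adjusted p in DESeq2 was 0.308.

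Aged heart 4, which had the most Nppa, also had the highest sum of atrial marker RNA, and the single markers are named here after their values were seen. It was the highest heart for 5 of the 8 markers (Myl7, Sln, Bmp10, Myl4 and Mybphl) and not for Kcna5, Tbx5 and Stard10. The light chain Myl7 was at 69.2 CPM in aged heart 4, at 49.7 and 5.6 CPM in young hearts 3 and 13, and at 0.496, 0.263 and 0.536 CPM in young heart 15 and aged hearts 3 and 7. Sarcolipin (Sln), an atrial inhibitor of the calcium pump, was at 33.2 CPM in aged heart 4, 8.05 CPM in young heart 3 and at most 0.307 CPM in the other 4 hearts. Bmp10, an atrial growth factor, was at 15.9 CPM in aged heart 4 and between 0 and 0.788 CPM in the rest. The atrial potassium channel gene Kcna5 went the other way, at 0.872 CPM in aged heart 4 against 21.8 and 23 CPM in young hearts 3 and 13, and was past the limits and lower in aged donor hearts (log2 fold change -4.20). The transcription factor Tbx5 was at 21.2 CPM in aged heart 4 against 35.6 and 42.7 CPM in young hearts 3 and 13, and Stard10 at 9.67 against 11.8 and 14.1 CPM. Summed over the 8 atrial markers, the level ranged from 33.2 to 132.4 CPM in young and from 10.4 to 204.1 CPM in aged donor hearts. Young heart 3, second in Myl7 and Sln, had the lowest Nppa of the young donor hearts, and aged heart 7 and young heart 15 had 367.6 and 390.3 CPM of Nppa with Myl7 and Sln near 0. The part of atrial tissue in the Nppa level of aged heart 4 was not tested.

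Nppb was read 328, 2677 and 4919 times in young hearts 3, 13 and 15 and 32, 6012 and 1419 times in aged hearts 3, 4 and 7. The levels were 19.8, 170.2 and 203.2 CPM in young and 1.05, 227.9 and 54.4 CPM in aged donor hearts. The aged donor hearts held both the highest and the lowest level, as for Nppa. The means were 131.1 ± 97.7 CPM and 94.5 ± 118.6 CPM (SD, n = 3 each). Its log2 fold change, -0.47 with a standard error of 1.52, was within the spread between hearts (adjusted p = 0.837, edgeR with Benjamini-Hochberg adjustment), and its sign was not determined, being 0.11 without aged heart 3, 0.02 without young heart 15 and 0.61 without both. The exact permutation test (two-sided) gave p = 0.7.

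Although neither level separated the groups, the ratio of the pair did, alone among the 3 ratios examined. How often the ratio of other gene pairs separates these hearts was not computed. Among single genes tested, 20.6% had every aged donor heart below every young one, and 21% the reverse. Per kilobase of transcript, the ratio of Nppb to Nppa was 1.24, 6.02 and 0.687 in young hearts 3, 13 and 15, and 0.308, 0.22 and 0.195 in aged hearts 3, 4 and 7. Every aged donor heart was below every young donor heart, so relative to Nppb the aged donor hearts held more Nppa, and a ratio within a heart does not depend on library scaling. As a share of the reads of both genes, Nppb made up 48.4% (95% Wilson interval 44.6% to 52.1%), 82% (80.7% to 83.3%) and 34.2% (33.5% to 35%) in the young donor hearts. In aged hearts 3, 4 and 7 the share was 18.7% (13.6% to 25.2%), 14.3% (14% to 14.6%) and 12.9% (12.3% to 13.5%), and these intervals cover counting error only. On the log2 scale the ratio averaged 0.79 ± 1.62 in young and -2.08 ± 0.34 in aged donor hearts (SD, n = 3 each), a difference of -2.87 (exact permutation test, two-sided, p = 0.1, the smallest these hearts allow, and 0.3 after Benjamini-Hochberg adjustment over the 3 ratios examined). Leaving out each heart in turn moved the difference between -3.53 and -1.96.

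Nppc (ENSRNOG00000018854; chromosome 9, 93731436 to 93735636, minus strand) encodes C-type natriuretic peptide, a local signal of endothelium and growth plate. It was read 16, 1 and 0 times in young hearts 3, 13 and 15 and 4, 0 and 2 times in aged hearts 3, 4 and 7. It did not pass the filter on low counts and was not tested. A count of 0 allows up to 3 reads, or 0.124 CPM in young heart 15 and 0.114 CPM in aged heart 4, so a difference between the groups was not detectable at this depth.

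**Figure D1:**
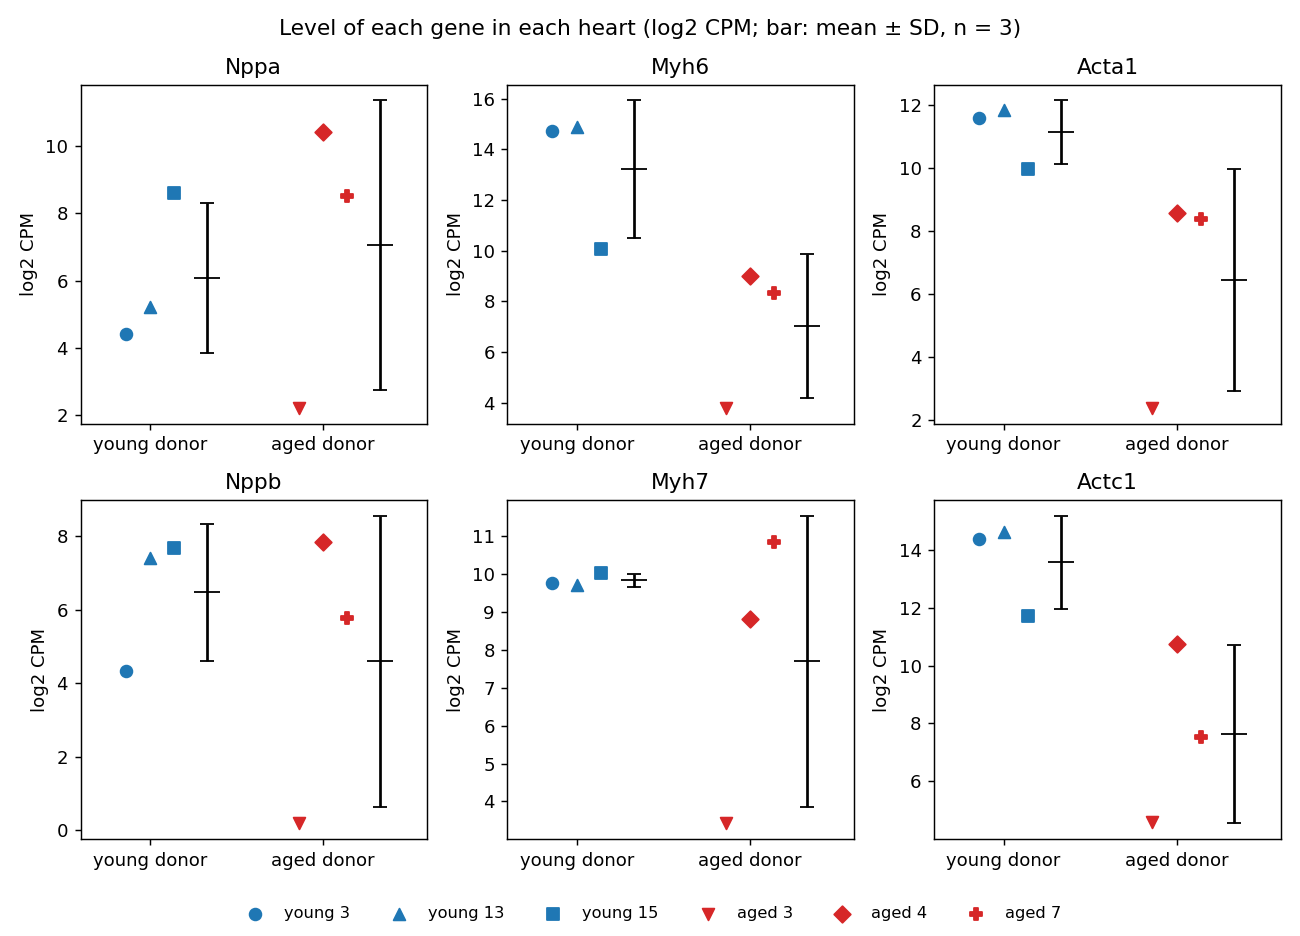
Log2 CPM of the 6 genes that were tested, one panel per gene, with young donor hearts in blue, aged donor hearts in red, one symbol per heart and bars for the mean ± SD (n = 3). In the Myh6, Acta1 and Actc1 panels every aged donor heart lies below every young one, whereas in the Nppa, Nppb and Myh7 panels the groups overlap and aged heart 3 is the lowest.

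Genes that process, sense and clear the peptides were read from 2 lists. Of 6 tested genes of processing and clearance, 2 were past the limits and lower (Corin and Pcsk6), 1 was past them and higher (Mme), beside 19% and 13.2% of all genes tested, and the median log2 fold change was -1.09, where it was 0.02 over all genes tested. Corin, the membrane protease of cardiomyocytes that cuts pro-atrial natriuretic peptide to its active form, was at 228.9, 169.9 and 9.71 CPM in young hearts 3, 13 and 15 and at 1.35, 6.29 and 5.83 CPM in aged hearts 3, 4 and 7. Its groups did not overlap, and its log2 fold change was -4.92 with a standard error of 1.24 (adjusted p = 0.0916, edgeR with Benjamini-Hochberg adjustment). Aged hearts 4 and 7 and young heart 15 thus combined high Nppa with less than 10 CPM of Corin, young hearts 3 and 13 the reverse, and aged heart 3 was low in both. Pcsk6, a protease that activates corin, had a log2 fold change of -1.83, with young heart 15 (65.3 CPM) below aged heart 4 (71.9 CPM). Furin, a protease that processes pro-B-type natriuretic peptide, was named after its values were seen, and its log2 fold change of 0.43 was not past the limits. Mme, the peptidase neprilysin that degrades natriuretic peptides, was at 3.03, 2.35 and 5.45 CPM in young and 26.4, 9.48 and 18.6 CPM in aged hearts 3, 4 and 7. All aged donor hearts were above all young ones, with a log2 fold change of 2.32 and a standard error of 0.50 (adjusted p = 0.0916 from the same test). Among the aged donor hearts the neutrophil marker sum had the same order, at 1512, 392.5 and 860.1 CPM in aged hearts 3, 4 and 7, and its part in the Mme level was not tested. The clearance receptor Npr3 was at 15.7, 3.5 and 2.44 CPM in young and 0.723, 2.05 and 2.61 CPM in aged donor hearts. It overlapped between the groups, with a log2 fold change of -2.0 that was not past the limits (unadjusted p = 0.0535 from edgeR).

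The receptors that signal through cyclic GMP differed from each other. Npr1, which binds the atrial and B-type peptides, lay between 79.7 and 101.3 CPM in young and between 86.2 and 131.8 CPM in aged donor hearts. This difference, 0.26 on the log2 scale with a standard error of 0.22, was within the spread between hearts. Npr2, which binds C-type natriuretic peptide, was at 71.0, 70.1 and 36.8 CPM in young and 26.5, 27.7 and 29.7 CPM in aged donor hearts, with no overlap and a log2 fold change of -1.08 (standard error 0.28). Of the 8 tested genes of receptors and cyclic GMP signalling, 3 were past the limits and lower (background 19%), namely Npr2, the soluble guanylyl cyclase subunit Gucy1a1 (-1.73) and the cyclic GMP phosphodiesterase Pde9a (-1.24). Rgs2, a brake on G protein signalling, was the 1 gene past the limits and higher, with a log2 fold change of 1.02, and the median of the 8 was -0.50.

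The myosin heavy chain genes lie in tandem on the minus strand of chromosome 15. On Rnor_6.0, Myh6 (ENSRNOG00000025757) is placed from 33605654 to 33629699 and Myh7 (ENSRNOG00000016983) from 33634422 to 33656089, with 4722 bases between them. Each hosts a microRNA on its own strand, shown because the balance of the host genes varied among these hearts. Other mature sequences placed within these genes, rno-miR-208a-5p, rno-miR-208b-5p and, on the plus strand within Myh6, rno-miR-3546, are not shown. The RefSeq mature sequences are given 5′ to 3′ with the seed, bases 2 to 8, in capitals, for GRCr8 chr15:32395568-32395585 within Myh6 and chr15:32421648-32421665 within Myh7, both on the minus strand.
rno-miR-208a-3p: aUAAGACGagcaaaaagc
rno-miR-208b-3p: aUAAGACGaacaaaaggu
The seeds are the same. The libraries were made from polyadenylated RNA and did not measure these microRNAs.

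Myh6 was read 444199, 471115 and 26270 times in young hearts 3, 13 and 15 and 415, 13583 and 8428 times in aged hearts 3, 4 and 7. The levels were 26870, 29950 and 1085 CPM in young and 13.6, 514.9 and 323 CPM in aged donor hearts. All aged donor hearts were below all young donor hearts. In CPM, young heart 15 was closer to the aged donor hearts than to the other young ones. On the log2 scale this held for aged hearts 4 and 7 but not for aged heart 3. In all, 20.6% of the genes tested had every aged donor heart below every young one, and 21% the reverse. The means were 19300 ± 15850 CPM and 283.8 ± 252.9 CPM (SD, n = 3 each), and the log2 fold change of -6.09 had a standard error of 1.85. The unadjusted p from edgeR was 0.0153 and the Benjamini-Hochberg adjusted p 0.0962, against adjusted values of 6.28e-05 in DESeq2 and 0.0011 in limma-voom with quality weights. Without aged heart 7 the log2 fold change was -6.18 and Myh6 was no longer past the limits (unadjusted p = 0.055 from edgeR), and without each of the other hearts it remained past them.

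Myh7 did not follow Myh6. It was read 14342, 13057 and 25167 times in young hearts 3, 13 and 15 and 323, 11884 and 48097 times in aged hearts 3, 4 and 7, at 867.7, 830.2 and 1039 CPM in young and 10.6, 450.5 and 1843 CPM in aged donor hearts. The young donor hearts lay close together, and the aged donor hearts on both sides of them. The means were 912.4 ± 111.6 CPM and 768.1 ± 956.6 CPM (SD, n = 3 each). The log2 fold change was -0.25 with a standard error of 1.33 (adjusted p = 0.903, edgeR with Benjamini-Hochberg adjustment; two-sided exact permutation test, p = 0.5). Its sign changed with the scaling, being 0.14 with library totals alone, and with the hearts included, being 0.34 without aged heart 3, 0.48 without both young heart 15 and aged heart 3, and -1.98 without aged heart 7.

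Within each heart, Myh7 made up 3.13% (95% Wilson interval 3.08% to 3.18%) of the reads of both myosin genes in young heart 3 and 2.7% (2.65% to 2.74%) in young heart 13. It made up 48.9% (48.5% to 49.4%) in young heart 15. In aged hearts 3, 4 and 7 the share was 43.8% (40.2% to 47.4%), 46.7% (46.1% to 47.3%) and 85.1% (84.8% to 85.4%). A low share, typical of an adult rat ventricle, was thus found in 2 young donor hearts only, the reads of young heart 15 and of aged hearts 3 and 4 were divided nearly evenly, and aged heart 7 held mainly Myh7. On the log2 scale the ratio of Myh7 to Myh6 per kilobase averaged -3.37 ± 2.89 in young and 0.68 ± 1.61 in aged donor hearts (SD, n = 3 each). The difference of 4.05 did not separate the groups (exact permutation test, two-sided, p = 0.3, also 0.3 after Benjamini-Hochberg adjustment over the 3 ratios), since young heart 15, at -0.04, lay above aged hearts 3 and 4, at -0.34 and -0.17. Without young heart 15 the difference was 5.72, and without aged heart 3 as well it was 6.22. The aligner and counter settings for reads that fit both genes are not given in the sources used here, and Myh6 and Myh7 are closely similar, so a small share of either may be misassigned reads of the other.

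Acta1 (ENSRNOG00000017786) lies on the minus strand of chromosome 19 from 56674074 to 56677084, and Actc1 (ENSRNOG00000008536) on the minus strand of chromosome 3 from 105507403 to 105512939. Their promoters are shown because both genes were lower in aged donor hearts. They are RefSeq sequences on GRCr8 of the minus strand, chr19:68784145-68784444 for Acta1 and chr3:121271778-121272077 for Actc1. Capitals mark matches to CATTCC and to the CArG box, the motif bound by serum response factor.
Acta1: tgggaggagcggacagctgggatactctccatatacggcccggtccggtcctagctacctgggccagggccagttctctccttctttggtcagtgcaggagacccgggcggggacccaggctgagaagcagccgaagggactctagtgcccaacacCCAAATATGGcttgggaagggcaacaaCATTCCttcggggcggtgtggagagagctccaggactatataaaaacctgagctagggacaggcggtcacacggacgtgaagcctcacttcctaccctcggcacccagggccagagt
Actc1: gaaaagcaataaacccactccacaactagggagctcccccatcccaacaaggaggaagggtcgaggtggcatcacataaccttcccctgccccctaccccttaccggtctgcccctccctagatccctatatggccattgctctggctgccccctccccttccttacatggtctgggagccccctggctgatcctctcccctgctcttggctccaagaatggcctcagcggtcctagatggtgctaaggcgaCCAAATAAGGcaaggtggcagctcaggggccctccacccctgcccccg
The CArG box stood at -94 to -85 in the Acta1 window and at 2 to 11 in the Actc1 window, counted from 0 at the start, and 1.64% of the 33469 windows held one. Acta1 also had CATTCC at -67 to -62. The CArG boxes and CATTCC did not overlap. The windows of Myh6 and Myh7 are not shown.

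Actc1 was the most abundant of the 7 genes by FPKM, a level per transcript length, in every heart but aged hearts 4 and 7. It was read 353403, 401928 and 82329 times in young hearts 3, 13 and 15 and 730, 45616 and 4811 times in aged hearts 3, 4 and 7, at 21380, 25560 and 3400 CPM and at 24, 1729 and 184.4 CPM. The groups did not overlap. The means were 16780 ± 11770 CPM and 645.9 ± 941.7 CPM (SD, n = 3 each), and the log2 fold change of -4.70 had a standard error of 1.74 (adjusted p = 0.122, edgeR with Benjamini-Hochberg adjustment). The unadjusted p from edgeR was 0.0334, and the adjusted p was 0.00262 in DESeq2 and 0.00202 in limma-voom with quality weights. Actc1 was no longer past the limits without young heart 3, without young heart 13 or without aged heart 7, at log2 fold changes of -4.49, -4.26 and -4.25, and without aged heart 4 the log2 fold change was -7.32.

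Acta1, a gene of the fetal programme, was likewise lower with aged donors. It was read 51048, 58575 and 24441 times in young hearts 3, 13 and 15 and 156, 10155 and 8704 times in aged hearts 3, 4 and 7. The levels were 3088, 3724 and 1009 CPM in young and 5.12, 385 and 333.5 CPM in aged donor hearts, and the groups did not overlap. The means were 2607 ± 1420 CPM and 241.2 ± 206.1 CPM (SD, n = 3 each), and the log2 fold change of -3.43 had a standard error of 1.39 (adjusted p = 0.139, edgeR with Benjamini-Hochberg adjustment). The unadjusted p from edgeR was 0.0458, near the limit, and the adjusted p was 0.0157 in DESeq2 and 0.0121 in limma-voom with quality weights. When 1 heart was left out, Acta1 was no longer past the limits without young heart 3, young heart 13, aged heart 4 or aged heart 7 (log2 fold changes of -3.3, -3.09, -3.94 and -3.73), and it was past them without young heart 15 or aged heart 3. With library totals alone its log2 fold change was -2.91 (unadjusted p = 0.0578 from edgeR), a scaling under which the median log2 fold change of all genes was 0.46. Skeletal muscle also makes Acta1, and its markers summed to 17.7 to 55.5 CPM in young and 18.8 to 34.3 CPM in aged donor hearts.

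The ratio of Acta1 to Actc1 per kilobase was 0.15, 0.151 and 0.308 in young hearts 3, 13 and 15 and 0.222, 0.231 and 1.88 in aged hearts 3, 4 and 7. Young hearts 3 and 13 had nearly equal ratios, and aged heart 7 alone had more Acta1 than Actc1. Acta1 took 12.6% (95% Wilson interval 12.5% to 12.7%) and 12.7% (12.6% to 12.8%) of the reads of both genes in young hearts 3 and 13, 22.9% (22.6% to 23.1%) in young heart 15, 17.6% (15.2% to 20.3%) and 18.2% (17.9% to 18.5%) in aged hearts 3 and 4, and 64.4% (63.6% to 65.2%) in aged heart 7. The log2 ratio averaged -2.39 ± 0.60 and -1.13 ± 1.76 (SD, n = 3 each). The groups overlapped (exact permutation test, two-sided, p = 0.3, and 0.3 after Benjamini-Hochberg adjustment), and the difference of 1.26 was 0.25 without aged heart 7 and 2.13 without young heart 15 and aged heart 3. The coding sequences of these actins are nearly the same, so their separate counts are uncertain to the extent that reads were divided between them.

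**Figure D2:**
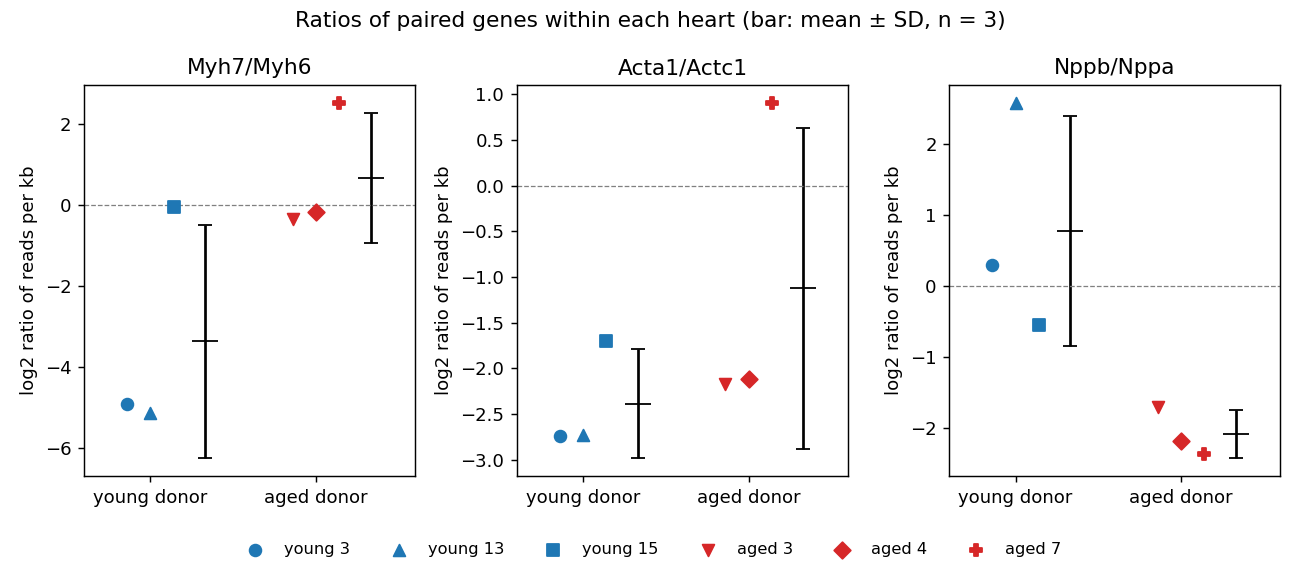
Log2 ratio of reads per kilobase of Myh7 to Myh6, Acta1 to Actc1 and Nppb to Nppa in each heart, with symbols and bars (mean ± SD, n = 3) as in the plot of levels. Only in the Nppb/Nppa panel do the groups separate, with aged donor hearts from -2.36 to -1.70 and young donor hearts from -0.54 to 2.59, while aged heart 7 has the highest Myh7/Myh6 and Acta1/Actc1 ratios.

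The order of the 6 tested genes within a heart, by FPKM, also differed. In young heart 3, Actc1 (11060), Myh6 (3434) and Acta1 (1657) were followed at a distance by Myh7 (112.8), Nppb (22.8) and Nppa (18.4), and the order in young heart 13 differed only in that Nppb (185.6) stood above Myh7 (102.7). In young heart 15, Nppa (478.2) and Nppb (328.6) stood above Myh6 (195.6) and Myh7 (190.7). In aged hearts 4 and 7, Nppa had the highest FPKM of the 7 genes, 1742 and 480.4, followed by Actc1 (1313) in aged heart 4 and by Myh7 (360.8) in aged heart 7. Aged heart 3 had Actc1 first at 20 and Nppa second at 6.38.

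To set the genes beside the cell type that makes most of them, the mean log2 CPM of the 11 cardiomyocyte markers was subtracted in each heart. On this scale Nppa was at -7.18 and -6.48 in young hearts 3 and 13, -0.80 in young heart 15, and -0.92, 1.72 and -0.08 in aged hearts 3, 4 and 7. Relative to the markers, then, Nppa was lowest by far in 2 young donor hearts, and aged heart 3, with the fewest Nppa reads of all, was near young heart 15. The difference between the group means was 5.06 for Nppa, 2.22 for Nppb and 1.96 for Myh7, with overlap between the groups in each. It was -2.09 for Myh6, -1.87 for Actc1 and -0.60 for Acta1, with every aged donor heart below every young one. The share of all genes tested that separate in this way on this scale was not computed. Without adjustment over the 6 genes compared, the exact permutation tests (two-sided) gave p = 0.1 for Myh6, Acta1 and Actc1, the smallest these hearts allow, 0.2 for Nppa and 0.3 for Nppb and Myh7. With the median of the markers in place of their mean, p was 0.1 for Nppa, whose groups then separated, and 0.2 for Myh6, whose groups then overlapped (differences of 5.1 and -2.05). With young heart 15 and aged heart 3 both left out, the differences were 7.65 for Nppa, 3.94 for Nppb, 3.1 for Myh7, -3.12 for Myh6 and -2.37 for Actc1. Acta1 kept closest to the markers, from -0.76 to 0.57 in the 6 hearts, and without the same 2 hearts its difference was -0.24. With the marker mean as a covariate in edgeR, 0 of the 6 genes were past the limits, and the log2 fold changes were -2.36 for Myh6, -1.41 for Actc1, -0.39 for Acta1, 1.74 for Myh7, 1.1 for Nppb and 2.88 for Nppa. The marker mean itself was lower in every aged donor heart than in every young one, so the covariate and donor age cannot be told apart fully.

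**Figure D3:**
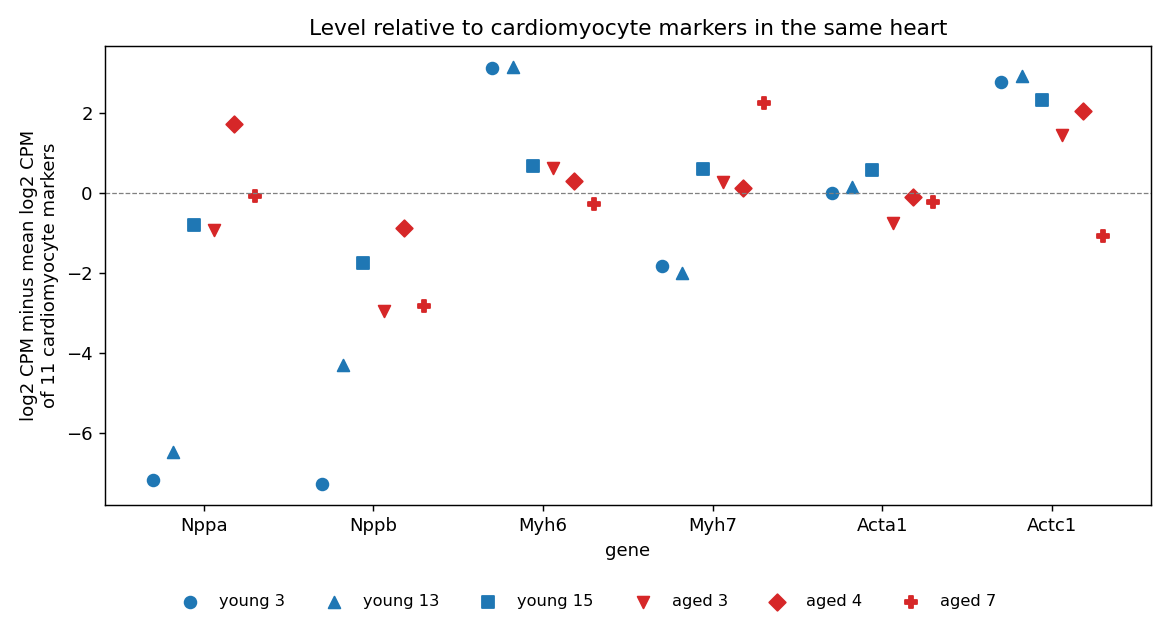
Log2 CPM of each gene minus the mean log2 CPM of 11 cardiomyocyte markers in the same heart, with one symbol per heart, young donor hearts in blue and aged donor hearts in red. Young hearts 3 and 13 are the lowest for Nppa, Nppb and Myh7 and the highest for Myh6 and Actc1, and for Myh6, Acta1 and Actc1 every aged donor heart lies below every young one, which for Myh6 did not hold with the median of the markers.

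Of the other contractile isoforms, 4 of 14 tested genes were past the limits and lower and 0 higher (background 19% and 13.2%), with a median log2 fold change of -2.55. The 4 were Myh7b, a slow myosin gene (-5.43), Myl2 (-3.50), the slow troponin I of the fetal heart Tnni1 (-2.95) and tropomyosin 1 (Tpm1, -2.61). In 8 of the 14 every aged donor heart lay below every young one, as in 20.6% of all genes tested. Among the 8, Myl2, Myl3, Tnnt2, Tnnc1 and Mybpc3 are also cardiomyocyte markers, so this list is not separate from the markers. Tnni1 was low throughout, at 0 to 3.33 CPM in the 6 hearts. The atrial light chains Myl4 and Myl7, which the fetal ventricle also makes, were not past the limits and had log2 fold changes of 2.40 and 0.33 with standard errors of 1.42 and 2.13.

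The genes of load and hypertrophy response gave 3 of 14 tested genes past the limits and higher and 0 lower (background 13.2% and 19%), with a median log2 fold change of 0.48. In either direction this was 21.4% of the list, below the 32.2% of all genes tested. Gdf15, a stress-induced cytokine, was at 1.75, 0.572 and 4.01 CPM in young and 14.6, 13.4 and 16.5 CPM in aged hearts 3, 4 and 7, a log2 fold change of 2.79 (standard error 0.64). The immediate early genes Fos and Egr1 had log2 fold changes of 2.04 and 1.40. Of the 14 tested genes, 6 had every aged donor heart above every young one and 0 the reverse, beside 21% and 20.6% of all genes tested. Gdf15, Fos and Egr1 were among the 6. Ankrd1, a stretch-responsive cardiomyocyte gene named after its values were seen, did not follow them. It was at 1185, 1392 and 3785 CPM in young and 25.1, 2963 and 2378 CPM in aged donor hearts, with a log2 fold change of -0.25 and a standard error of 1.34.

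Regulators of the programme had 9 of 20 tested genes past the limits and lower and 1 higher (background 19% and 13.2%), with a median log2 fold change of -0.89. The thyroid hormone receptors Thrb (-2.33) and Thra (-1.83), through which thyroid hormone activates Myh6 and represses Myh7, were lower. Thrb was at 96.4, 103.2 and 21.1 CPM in young and 5.06, 17.7 and 21 CPM in aged hearts 3, 4 and 7, so young heart 15 and aged heart 7 were nearly equal. Also lower were the serum response factor coactivator Myocd (-2.15), the factor Gata6 (-1.92), which binds GATA motifs, and Hand2 (-1.80). Gata4 (-1.46) and Tead1 (-0.81), both named after their values were seen, were past the limits and lower too. The 1 gene past the limits and higher was Hopx, a homeodomain protein that restrains serum response factor, with a log2 fold change of 1.06, named after its value was seen. Serum response factor itself (Srf), also named after its values were seen, differed by -0.08 with a standard error of 0.26.

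In the metabolic arm of the programme, the fetal heart relies on glucose and the adult heart on fatty acids. Here 10 of 14 tested genes were past the limits and lower and 1 was higher (background 19% and 13.2%), with a median log2 fold change of -2.70. The list also held the calcium handling genes Atp2a2 and Pln, both among the 10 lower. The adult glucose transporter Slc2a4 was at 508 and 552.7 CPM in young hearts 3 and 13, 11.4 CPM in young heart 15 and 1.81, 4.59 and 4.68 CPM in aged hearts 3, 4 and 7, with a log2 fold change of -6.60 and a standard error of 1.45. The fetal transporter Slc2a1, named after its value was seen, was the 1 gene higher, at 33.0, 38.1 and 57.9 CPM in young and 67.1, 99.1 and 121.6 CPM in aged donor hearts, with no overlap. The mitochondrial regulator Ppargc1a (-4.89), phospholamban (Pln, -4.41), the calcium pump Atp2a2 (-3.80) and the fatty acid regulator Ppara (-2.85) were lower. So were genes more typical of the fetal heart, named after their values were seen, the hexokinase Hk1 (-0.72) and the creatine kinase Ckb (-0.80), while Cpt1a, a carnitine palmitoyltransferase of the fetal heart, was not past the limits, at 159.6 CPM in aged and 158.9 CPM in young donor hearts on average. Over the 6 lists, 35 of 76 tested genes (46.1%) were past the limits, against 32.2% of all genes tested, with 7 of them higher and 28 lower. The number was 60 with young heart 15 and aged heart 3 both left out and 10 with the marker mean as a covariate. Myl2, Myl3, Tnnt2, Tnni3, Tnnc1, Mybpc3, Pln and Ckm stand both in the lists and among the cardiomyocyte markers. Their own levels thus entered the covariate, and their calls under it are not independent of it.

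**Figure D4:**
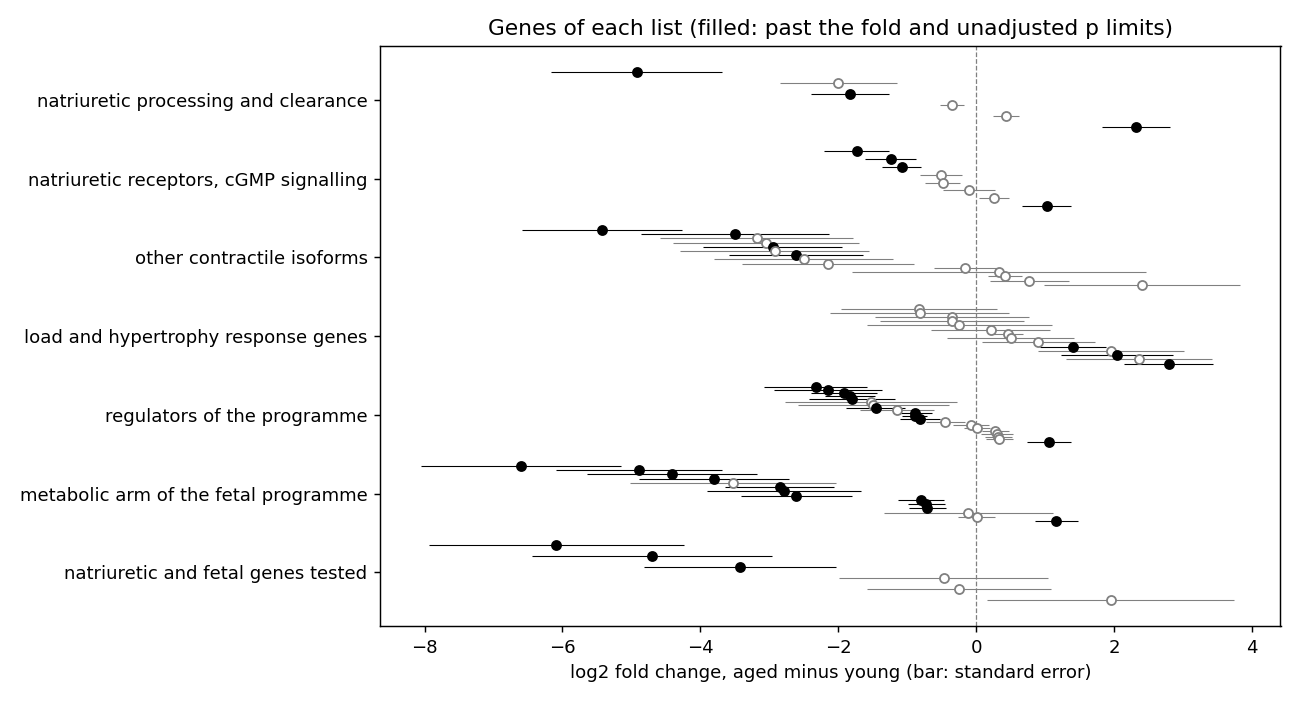
Log2 fold change (aged minus young, with its standard error) of each tested gene of the 6 lists and of the 6 natriuretic and fetal genes tested, filled where the gene is past the fold and unadjusted p limits. The metabolic arm, a list that includes the calcium handling genes Atp2a2 and Pln, holds 11 filled points of 14, 10 of them to the left of 0. Among the natriuretic and fetal genes the filled points are Myh6, Actc1 and Acta1.

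The genes most like each of the 6 in their log2 CPM across the 6 hearts were found by Pearson's r among 12952 genes, as a description only, since the same few hearts set every r. Myh6 was most like Sdhaf3, an assembly factor of succinate dehydrogenase (0.9999), Ank1 (0.9998) and Acad8, an enzyme of valine breakdown (0.9994). Acta1 was most like Akap6 (0.9995), the calcium release channel Ryr2 (0.9994) and Sptb (0.9992), and Actc1 like Mroh7 (0.9976), Rnf187 (0.9973) and Asb2 (0.9973). For Nppa the nearest were Mindy4 (0.9955), Stbd1 (0.9877) and the iron hormone gene Hamp (0.9861), and for Nppb Ehbp1l1 (0.9903), RGD1561796 (0.9902) and Ube2o (0.9757). Myh7 was most like the calcium sensor gene Ncs1 (0.996), LOC100125367 (0.9931) and Shroom3 (0.9895). No gene stood among the 3 nearest of more than 1 of the 6.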

How the data were processed

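Gene expression was measured by RNA-Seq of polyadenylated RNA from 3 young and 3 aged donor hearts. The authors deposited raw read counts per gene and heart, without normalization, and FPKM values, which the authors made from the count, the gene length and the library total (42 of 42 values of the 7 genes followed this within 0.1%). The submitters' processing notes name HISAT2 2.0.5, StringTie 1.3.3b, featureCounts 1.5.0-p3, DESeq2 1.16.1, GATK 3.7 and the build Rnor_6.0. Strand and multimapping settings are not given in the sources used here. All heart columns were used, and 0 columns belonged to other samples.

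Read counts were fitted with edgeR 4.0.16 in R 4.3.3 (filterByExpr, TMM, glmQLFit and glmQLFTest, no covariates), with limma 3.58.1 and DESeq2 1.42.0 as alternatives. P-values were adjusted over all 13784 genes tested. Log2 CPM used a prior count of 2 and ratios a pseudocount of 0.5. Counts of the most alike hearts, young 3 and 13, differed beyond sampling noise (chi-square 10.1 per degree of freedom). P-values cover the spread between these 6 hearts only. The edgeR fit without a covariate was first tested on simulated counts of known fold change at a fixed dispersion. The DESeq2, limma-voom and covariate fits were not tested in this way.

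The 7 genes and the lists were chosen with earlier results of these data known. The genes named were the 7, up to 5 per list past the limits with a mean of at least 1 CPM and the largest log2 fold changes, Npr1, Npr2, Npr3, Corin, and the 3 genes most like each tested one. Of the 6 lists, Prkg1 and Ttn were not analysed here. Promoter entries matched 7 of 7 genes by symbol. Of the tested markers, 7 of 9 neutrophil and 5 of 10 macrophage genes were past the limits and higher, beside 13.2% of all genes tested. Past the limits and lower were 2 of 11 cardiomyocyte, 2 of 7 fibroblast, 1 of 7 endothelial, 1 of 6 smooth muscle and 1 of 5 red blood cell genes, beside 19% of all genes tested. In 9 of the 11 cardiomyocyte genes every aged donor heart lay below every young one, beside 20.6% of all genes tested. The median log2 fold change of the 11 was -3.1. Of 7 atrial genes 1 was higher and 1 lower, and of 6 skeletal muscle genes 0 were past the limits.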

Additional observations from a re-analysis of the deposited data

How the results depend on the processing

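Depth limits Nppc and the shares in aged heart 3, and 3 hearts per group limit the rest. The number of genes past the limits was 4436, and it was 0 with Benjamini-Hochberg adjusted p-values from edgeR (4731 genes had an unadjusted p-value under 0.05), 7504 with limma-voom, 921 with the cardiomyocyte marker mean as a covariate and 7396 with young heart 15 and aged heart 3 both left out, which was decided on after seeing the data. With 1 heart left out at a time it ran from 2432 without young heart 3 to 7214 without young heart 15. Of the 7 genes, 3 were past the limits, and 0 with the covariate. Leaving out 1 heart gave 0 (without aged heart 7) to 3. Over the gene lists 35 genes were past them, 10 with the covariate, which shares genes with the lists, 60 without both hearts, and 22 to 46 when 1 heart was left out.

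With the covariate the log2 fold changes were -2.36 for Myh6, -0.39 for Acta1 and -1.41 for Actc1, all 3 no longer past the limits, and they turned positive for Nppb (1.1) and Myh7 (1.74). With library totals alone, Acta1 was at -2.91 and no longer past the limits, and Myh7 at 0.14. Nppa passed the limits with limma-voom (3.25) and with both hearts left out (4.92), where Nppb (0.61) and Myh7 (0.48) turned positive. Myh6 (-6.05), Acta1 (-3.2) and Actc1 (-4.59) stayed past the limits with both hearts left out, a setting decided on after seeing the data. Leaving out 1 heart gave 0.32 to 4.34 for Nppa, -2.24 to 0.11 for Nppb (0.02 without young heart 15), -6.83 to -5.52 for Myh6, -1.98 to 0.34 for Myh7 (0.03 without aged heart 4), -3.94 to -2.85 for Acta1 and -7.32 to -4.12 for Actc1. The difference in log2 ratio ran from 3.12 to 5.72 for Myh7/Myh6, from 0.25 to 1.78 for Acta1/Actc1 and from -3.53 to -1.96 for Nppb/Nppa, and a pseudocount of 10 changed no direction. Relative to the cardiomyocyte markers it ran from 3.88 to 7.07 for Nppa, 0.80 to 3.57 for Nppb, -2.91 to -1.67 for Myh6, 1.27 to 2.8 for Myh7, -0.73 to -0.41 for Acta1 (-0.24 with both hearts left out) and -2.49 to -0.93 for Actc1. The causes of these changes were not tested. No paired analysis was possible because the donor groups share only 1 heart number, which counts within each group.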
